A study of Homo sapiens with 24 samples.

Results

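The 10 genes described here, IER2, IER3, IER5, EGR1, ZFP36, BTG1, SERTAD1, KLF6, KLF10 and DUSP1, are short genes of the immediate-early response whose products are not subunits of the transcription factor AP-1. They were chosen by name, with earlier results of these data known, so counts of members set beside shares over all probe sets are a description. All probe sets of the array annotated with 1 of these symbols and no other were taken, which gave 26 of 49372 probe sets, for 10 of 18132 genes. EGR1 had 6 probe sets, KLF6 had 5, DUSP1 had 4, BTG1 had 3, and IER5 and KLF10 had 2 each. The remaining 4 genes, IER2, IER3, ZFP36 and SERTAD1, had 1 each. For each gene, the probe set with the highest mean log2 intensity over the 24 arrays is called its leading probe set.

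Immediate-early genes are transcribed within minutes of serum, growth factors or stress, without the need for new protein, and their transcripts and proteins are short-lived. Serum response factor with its ETS-family partners, CREB and the kinases of the ERK pathway act at many of their promoters. EGR1 encodes a zinc finger transcription factor and is a textbook target of serum response factor, and KLF6 and KLF10 encode Krüppel-like zinc finger factors, the second induced by transforming growth factor beta. ZFP36 encodes tristetraprolin, which binds AU-rich elements and speeds the decay of many of these transcripts, and BTG1 encodes an antiproliferative protein that binds the CCR4-NOT deadenylase. DUSP1 encodes a nuclear phosphatase that switches off MAP kinases, and SERTAD1 a protein that binds CDK4 and transcription factors of the E2F family. IER2 and IER5 encode small nuclear proteins, and IER3 encodes a small membrane-associated protein known for its part in apoptosis.

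The cells were 2 established lines of human osteosarcoma, SJSA-1 and U2-OS, and THZ531 is a covalent inhibitor of CDK12 and CDK13, kinases that phosphorylate the elongating RNA polymerase II. RNA was taken after 6 h in 4 groups per line: 50, 200 and 800 nM THZ531 in SJSA-1, DMSO in SJSA-1, 50, 200 and 800 nM THZ531 in U2-OS, and DMSO in U2-OS, with 3 Affymetrix PrimeView arrays in each. Every group, DMSO included, was given new medium with serum together with the compound or the vehicle, so each gene was measured after a change of serum. Neither the methods nor the labels say whether the 3 replicates were separate cultures, so the p-values cover only how these arrays varied, and that variation may be technical.

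Across the whole series, the deposited intensities ran from 3.43 to 9675, with array medians between 30.1 and 33.6. MDM2, which is amplified in SJSA-1, was 11.1-fold higher in SJSA-1 given DMSO than in U2-OS given DMSO. Active in a line means here a DMSO mean above log2(100), the criterion of the study's methods. Osteoblast markers were active for 0 of 8 measured genes in SJSA-1 and for 3 of 8 in U2-OS, and markers of leukocytes and endothelium (0 of 7) and of neurons and glia (0 of 6) were active in neither line, although the extraction text in the labels speaks of brain tissue. The poly-A controls, RNAs added before labelling, were brighter in treated than in DMSO arrays, with log2 differences of 0.51, 0.47 and 0.54 for 50, 200 and 800 nM in SJSA-1 and of 0.10, 0.55 and 0.94 in U2-OS. The hybridization controls, added after labelling, had differences of 0.22, 0.18 and 0.21 in SJSA-1 and of -0.18, -0.096 and -0.061 in U2-OS at these doses, of the other sign than the poly-A controls in U2-OS. The mean difference over the probe sets of both kinds of control, which set the shift, was 0.38, 0.34 and 0.40 in SJSA-1 and -0.018, 0.27 and 0.51 in U2-OS. The size of the shift depends on this mix. The poly-A differences alone were larger at every dose in both lines, and a shift by them alone was not run. The 3′ minus 5′ difference of the GAPDH control probe sets lay between -0.15 and -0.10 on the log2 scale over the 8 groups, and that of the ACTB control probe sets between 0.29 and 0.52. In RNA from whole cultures, fewer cells of a kind and less RNA per cell cannot be told apart. Shifting each array by its poly-A controls and hybridization controls together moved the median change of all active probe sets to -0.39, -0.31 and -0.33 in SJSA-1 and to 0.0086, -0.28 and -0.52 in U2-OS, and the members whose call or direction depended on that shift are named beside their values. With it, 421 probe sets were higher and 8867 lower at 200 nM in SJSA-1, against 5584 and 5239 on the values as deposited, and 174 were higher and 7868 lower at 200 nM in U2-OS, against 2454 and 3278.

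The limma tests ran over active probe sets with Benjamini-Hochberg adjustment. Of the 26 member probe sets, 15 were active in SJSA-1, 14 in U2-OS, 13 in both and 10 in neither. All 6 probe sets of EGR1 were below the criterion in both lines, and SERTAD1 was below it in U2-OS. EGR1 in both lines and SERTAD1 in U2-OS were therefore read from a second limma fit over all 49372 probe sets, named beside each value as the fit over all probe sets.

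The members are short on the genome. Their spans on the RefSeq annotation of GRCh38.p14 ran from 1349 bases (IER3) to 9214 bases (KLF6), with a median of 4302.5 bases, whereas the active genes of the array had a median span of 29978 bases and 18.9% of them were as short as KLF6. RefSeq promoter sequences, the 250 bases before the annotated start, were matched for 8 of the 10 members (IER3 and KLF10 were not used here) and searched on both strands with those of 27305 genes. The CArG box, to which serum response factor binds, was found in 1.18% of all promoters and in that of EGR1 among the members, at 105 to 96 and 83 to 74 bases before the start. The sequence TATAAA was found in 11.3% of promoters, among them those of BTG1, 33 to 28 bases before the start, and DUSP1, 30 to 25 bases before it. The full cyclic AMP response element TGACGTCA was found in 1.74% of promoters and in that of DUSP1, and its core TGACG, which the full element holds, in 21.3% of promoters and in those of IER2, EGR1, BTG1 and DUSP1. GGGCGG was found in 41.6% of promoters and in 6 of 8 members, CCGGAA in 14.8% and in IER2 and IER5, the AP-1 sequence TGAGTCA or TGACTCA in 4.28% and in 0 members, and the NF-kB site in 5.1% and in 0 members. A match describes these letters only and is not a measured binding site. The promoters of EGR1 and IER2, with the largest changes at 200 nM in SJSA-1, and of BTG1 and DUSP1, which changed in another order over the doses, are shown 5′ to 3′ on the strand of the gene, with the CArG box, TATAAA and TGACGTCA in capitals. They lie at chr5:138465229-138465478 (plus strand, EGR1), chr19:13150161-13150410 (plus strand, IER2), chr12:92145847-92146096 (minus strand, BTG1) and chr5:172771196-172771445 (minus strand, DUSP1) of GRCh38.p14.
EGR1: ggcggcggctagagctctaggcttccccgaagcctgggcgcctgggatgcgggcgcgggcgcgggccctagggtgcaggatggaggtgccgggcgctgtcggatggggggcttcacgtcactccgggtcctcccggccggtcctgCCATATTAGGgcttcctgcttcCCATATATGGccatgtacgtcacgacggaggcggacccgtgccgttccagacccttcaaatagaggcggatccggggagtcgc
IER2: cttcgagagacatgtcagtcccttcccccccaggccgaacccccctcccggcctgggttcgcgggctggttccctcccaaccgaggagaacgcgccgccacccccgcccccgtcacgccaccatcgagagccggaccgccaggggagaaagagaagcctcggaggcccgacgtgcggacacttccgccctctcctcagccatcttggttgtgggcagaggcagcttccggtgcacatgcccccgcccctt
BTG1: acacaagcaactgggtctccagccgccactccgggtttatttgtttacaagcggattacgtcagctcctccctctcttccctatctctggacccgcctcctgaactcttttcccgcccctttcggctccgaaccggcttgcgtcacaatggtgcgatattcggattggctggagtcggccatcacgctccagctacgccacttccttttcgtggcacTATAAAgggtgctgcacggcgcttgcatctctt
DUSP1: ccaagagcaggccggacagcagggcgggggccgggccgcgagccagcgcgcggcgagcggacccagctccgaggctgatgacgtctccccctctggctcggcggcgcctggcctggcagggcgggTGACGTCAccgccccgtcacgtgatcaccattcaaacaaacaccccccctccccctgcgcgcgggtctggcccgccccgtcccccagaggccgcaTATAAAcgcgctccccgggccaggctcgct

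In SJSA-1 cells, 8 of the 9 active members were higher after 50 nM THZ531 than in DMSO and 0 were lower, where 26.3% of all active leading probe sets were higher and 40.2% lower. At 200 nM the same counts were 8 and 0 of 9, where 33.6% of all were higher and 40.9% lower. At 800 nM, 4 of 9 members were higher and 3 lower, beside 36.3% higher and 37.3% lower over all. The median change of the 9 members was 0.73 at 50 nM, 0.79 at 200 nM and -7.5e-06 at 800 nM on the log2 scale, and that of all active leading probe sets -0.047, -0.017 and 0.017. After the shift by the controls, the counts of members higher and lower were 5 and 1 at 50 nM, 5 and 0 at 200 nM and 4 and 5 at 800 nM, and their median changes 0.35, 0.45 and -0.40. Of all 14824 active probe sets, 572 were then higher and 10708 lower, 421 and 8867, and 435 and 9250 at these doses. With arrays centred on their medians the member counts were 8 and 0, 9 and 0, and 4 and 1. Those over all active probe sets were 5503 and 4471, 6917 and 4599, and 8065 and 3911.

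In U2-OS cells, 1 of the 8 active members was higher after 50 nM THZ531 and 0 were lower, where 2.6% of all active leading probe sets were higher and 2.48% lower. At 200 nM, 6 of 8 members were higher and 0 lower, beside 17.6% and 24.3% over all, and at 800 nM 7 of 8 were higher and 0 lower, beside 25% and 36.1%. The median change of the 8 members was 0.17, 0.27 and 0.92 at 50, 200 and 800 nM, and that of all active leading probe sets -0.0067, -0.017 and -0.046. Under the shift by the controls, 0 members were higher and 0 lower at 50 nM, 2 and 2 at 200 nM, and 4 and 1 at 800 nM, and the medians were 0.19, -0.0065 and 0.41. Of all 14708 active probe sets, 50 were then higher and 58 lower, 174 and 7868, and 453 and 11865 at these doses. With arrays centred on their medians the member counts were 2 and 0 at 50 nM, 6 and 0 at 200 nM and 7 and 0 at 800 nM. Those over all active probe sets were 367 and 224, 2841 and 2823, and 4822 and 3905. The plot of the members by dose shows every array of both lines.

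**Figure D1:**
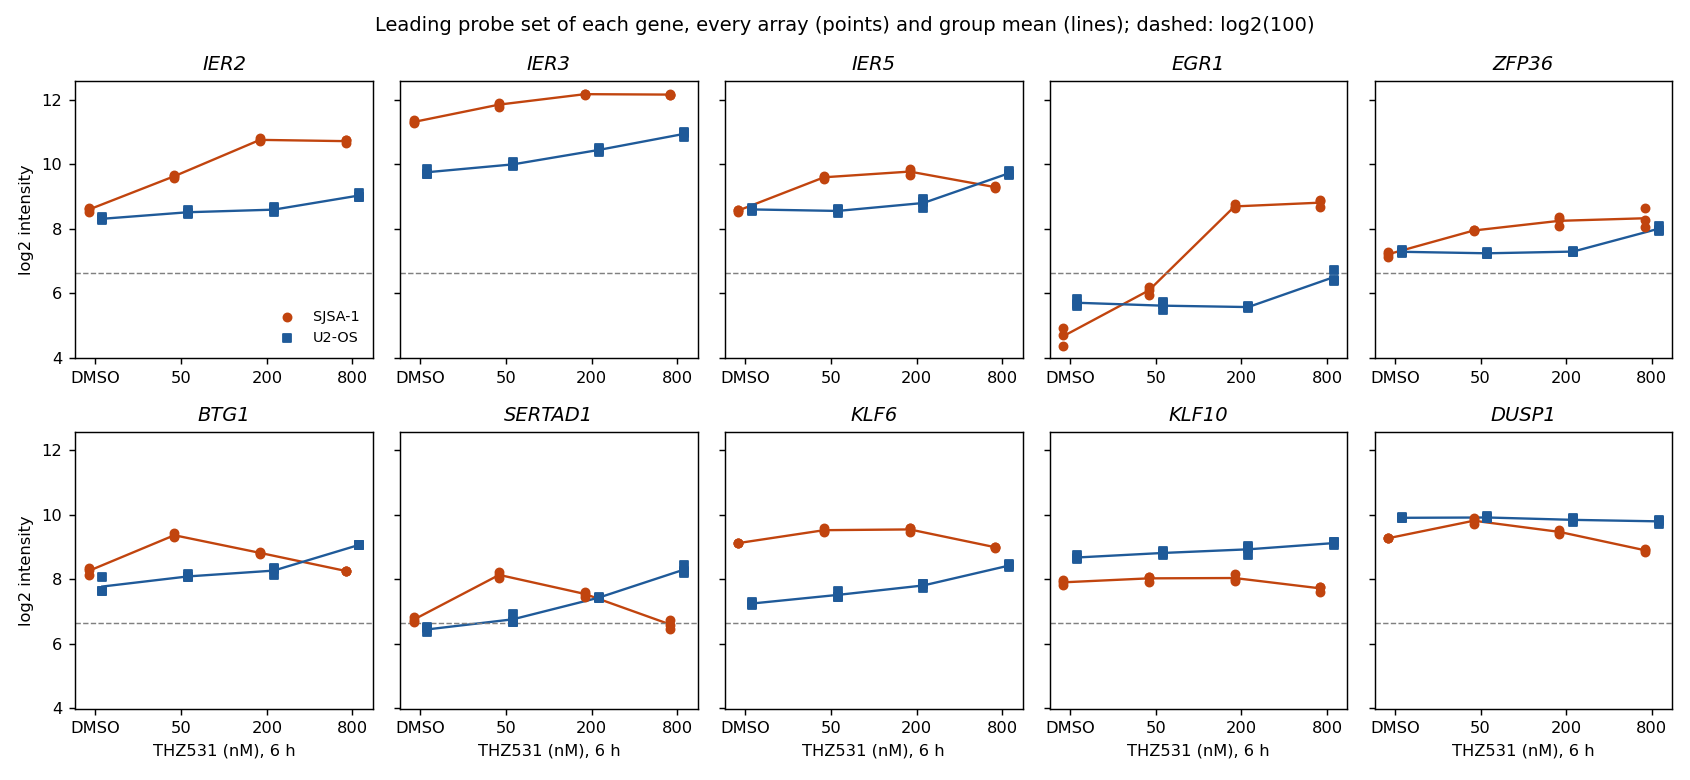
Log2 intensity (vertical axis) of the leading probe set of each member on every array of SJSA-1 (circles) and U2-OS (squares) by dose of THZ531 in nM (horizontal axis), with lines through the group means and a dashed line at log2(100). On the values as deposited, the means of EGR1, IER2, IER3 and ZFP36 in SJSA-1 at 200 and 800 nM differed by at most 0.12, those of SERTAD1, BTG1 and DUSP1 in SJSA-1 were highest at 50 nM, and the U2-OS means of all members but DUSP1 were highest at 800 nM.

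EGR1 had the largest change of the 10 genes at 200 and 800 nM in SJSA-1. Its leading probe set read 4.38, 4.92 and 4.71 on the log2 scale in the DMSO arrays, 6.11, 6.20 and 5.96 at 50 nM, 8.77, 8.64 and 8.67 at 200 nM, and 8.68, 8.89 and 8.86 at 800 nM. The groups did not overlap, except that the arrays at 200 and 800 nM lay among each other. In the fit over all probe sets, EGR1 was higher than in DMSO by 1.38 ± 0.11 (SE, adjusted p = 2.45e-07) at 50 nM, by 3.97 ± 0.11 (adjusted p = 1.41e-11) at 200 nM and by 4.09 ± 0.11 (adjusted p = 7.02e-12) at 800 nM (limma). In that fit 18% of all probe sets were higher at 50 nM, 30.1% at 200 nM and 24.8% at 800 nM. The DMSO mean of 4.67 lay below the median of every array and was not shown to be above background, so the differences are given on the log2 scale of the scanned values and not as folds. The other 5 EGR1 probe sets, also below the criterion in DMSO, rose by 0.94, 3.28, 4.06, 2.80 and 1.49 at 200 nM and by 1.37, 3.25, 3.90, 3.26 and 1.97 at 800 nM, all past the threshold in the fit over all probe sets. In the same order, their means were 5.04, 4.08, 3.45, 3.46 and 3.56 in DMSO, and 5.10, 4.67, 4.52, 3.77 and 3.84 at 50 nM.

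IER2 had the largest change among the members active in SJSA-1 at 200 and 800 nM. Its single probe set read 8.52, 8.61 and 8.65 in DMSO, 9.64, 9.67 and 9.58 at 50 nM, 10.71, 10.80 and 10.76 at 200 nM, and 10.65, 10.75 and 10.75 at 800 nM. Every treated array was above every DMSO array, and the arrays at 200 and 800 nM overlapped. The change was 1.03 ± 0.049 (SE, 2.05-fold, adjusted p = 1.81e-09) at 50 nM, 2.16 ± 0.049 (4.47-fold, adjusted p = 3.59e-12) at 200 nM and 2.12 ± 0.049 (4.35-fold, adjusted p = 1.68e-12) at 800 nM (limma). The step between 50 and 200 nM was 1.13 (adjusted p = 2.81e-09), and that between 200 and 800 nM was -0.040 (adjusted p = 0.575).

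IER3 and ZFP36 showed smaller changes in SJSA-1, with values at 800 nM close to those at 200 nM. IER3 read 11.30, 11.27 and 11.36 in DMSO, 11.90, 11.88 and 11.77 at 50 nM, 12.19, 12.19 and 12.14 at 200 nM, and 12.17, 12.15 and 12.16 at 800 nM, with no overlap between treated and DMSO arrays. It was higher by 0.54 ± 0.045 (SE) at 50 nM, 0.86 at 200 nM and 0.85 at 800 nM (adjusted p = 2.58e-07, 1.81e-09 and 1.92e-09, limma), and the first of these calls was lost with the shift by the controls, at 0.16. ZFP36, whose protein destabilises AU-rich transcripts, read 7.13, 7.23 and 7.27 in DMSO, 7.95, 7.95 and 7.94 at 50 nM, 8.35, 8.08 and 8.31 at 200 nM, and 8.07, 8.65 and 8.26 at 800 nM. The ZFP36 arrays at 800 nM were spread more widely than those of the other groups, and all treated arrays lay above DMSO. Its changes were 0.73 ± 0.12 (SE, adjusted p = 9.05e-05), 1.03 (2.04-fold, adjusted p = 3.73e-06) and 1.11 (2.16-fold, adjusted p = 1.87e-06). The difference between 800 and 200 nM did not pass for IER3 (-0.013, adjusted p = 0.852) or for ZFP36 (0.080, adjusted p = 0.636).

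BTG1 and SERTAD1 followed another course in SJSA-1, highest at 50 nM and near the DMSO level at 800 nM on the values as deposited. BTG1 read 8.15, 8.34 and 8.30 in DMSO, 9.30, 9.45 and 9.36 at 50 nM, 8.83, 8.79 and 8.85 at 200 nM, and 8.25, 8.27 and 8.27 at 800 nM. Its arrays at 50 and 200 nM lay above DMSO without overlap, those at 50 nM also above those at 200 nM, and those at 800 nM lay among the DMSO arrays. BTG1 was higher by 1.10 ± 0.054 (SE, 2.15-fold, adjusted p = 2.38e-09) at 50 nM and by 0.56 (1.47-fold, adjusted p = 9.89e-07) at 200 nM, a call lost with the shift by the controls at 0.21. Its step was -0.55 between 50 and 200 nM (adjusted p = 2.25e-06) and -0.56 between 200 and 800 nM (adjusted p = 8.33e-06). At 800 nM the BTG1 change against DMSO was -7.5e-06 (adjusted p = 1), which centring of the arrays turned to 0.10 and the shift by the controls to -0.40, past the threshold.

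SERTAD1, whose protein binds CDK4, read 6.67, 6.85 and 6.73 in DMSO, 8.13, 8.24 and 8.05 at 50 nM, 7.47, 7.62 and 7.56 at 200 nM, and 6.46, 6.60 and 6.74 at 800 nM. The DMSO mean was close to the criterion for active probe sets. SERTAD1 was higher by 1.38 ± 0.075 (SE, 2.61-fold, adjusted p = 5.43e-09) at 50 nM and by 0.79 (1.73-fold, adjusted p = 7.56e-07) at 200 nM. The step between 200 and 800 nM was -0.94 (adjusted p = 1.78e-06), and the change at 800 nM against DMSO was -0.15 (adjusted p = 0.0898), with overlapping arrays. With the shift by the controls this last change passed the threshold, at -0.55.

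DUSP1, the MAP kinase phosphatase, read 9.27, 9.29 and 9.27 in the DMSO arrays of SJSA-1, 9.83, 9.91 and 9.72 at 50 nM, 9.48, 9.41 and 9.53 at 200 nM, and 8.85, 8.92 and 8.94 at 800 nM. No array of 1 group lay among those of another. DUSP1 was higher than in DMSO by 0.54 ± 0.053 (SE, adjusted p = 1.12e-06) at 50 nM, and lower at 800 nM, at -0.37 (0.772-fold, adjusted p = 3.31e-05), or -0.77 under the shift by the controls. At 200 nM the change was 0.20 (adjusted p = 0.00456), which turned to -0.15 with the shift by the controls, and the call at 50 nM was lost with it, at 0.16. The second active DUSP1 probe set moved by 0.57, 0.24 and -0.38 at the same doses.

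IER5 rose at every dose in SJSA-1. It read 8.52, 8.59 and 8.59 in DMSO, 9.60, 9.64 and 9.55 at 50 nM, 9.85, 9.67 and 9.80 at 200 nM, and 9.25, 9.29 and 9.33 at 800 nM, and its groups did not overlap. The changes were 1.03 ± 0.051 (SE, 2.04-fold), 1.20 (2.30-fold) and 0.72 (1.65-fold), with adjusted p = 2.66e-09, 2.96e-10 and 4.2e-08 (limma), and the step between 200 and 800 nM was -0.48 (adjusted p = 1.81e-05). The second probe set of IER5 moved by 1.01, 1.12 and 0.69.

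The changes of the leading probe sets of the Krüppel-like factor genes in SJSA-1 were at most 0.42. Over its 3 active probe sets, KLF6 changed by 0.36 to 0.53 at 50 nM and by 0.30 to 0.57 at 200 nM, all called higher. The leading probe set of KLF6 read 9.13, 9.12 and 9.13 in DMSO, 9.51, 9.60 and 9.47 at 50 nM, 9.59, 9.59 and 9.47 at 200 nM, and 8.97, 9.02 and 9.0 at 800 nM. It was higher by 0.40 ± 0.047 (SE, adjusted p = 6.99e-06) at 50 nM and by 0.42 (adjusted p = 3.74e-06) at 200 nM, but with the shift by the controls neither call held, at 0.015 and 0.078. At 800 nM the KLF6 change was -0.13 (adjusted p = 0.0241), with every treated array below every DMSO array, and this call was lost without either of DMSO replicates 1 and 3 or 800 nM replicates 1 and 3, with a range of -0.14 to -0.12 over all arrays left out in turn, and with arrays centred on their medians, at -0.03. KLF10 read 7.82, 7.98 and 7.93 in DMSO, 8.08, 7.93 and 8.09 at 50 nM, 8.18, 7.95 and 8.0 at 200 nM, and 7.61, 7.78 and 7.78 at 800 nM. Its arrays overlapped with DMSO at the lower doses, where the changes of 0.12 (adjusted p = 0.154) and 0.13 (adjusted p = 0.115) did not pass. They turned to -0.26 and -0.21 with the shift by the controls, and the first was then called lower, whereas with arrays centred on their medians KLF10 was called higher at 200 nM, at 0.21 (adjusted p = 0.0291). At 800 nM the KLF10 change was -0.19 ± 0.072 (SE, adjusted p = 0.0339), a call lost without any of DMSO replicates 2 and 3 or 800 nM replicate 1, with a range of -0.23 to -0.13, and with arrays centred, at -0.09. The 2 active KLF10 probe sets were called lower at 800 nM, the second at -0.26. Over its 3 active probe sets KLF6 changed by -0.26 to -0.040 at that dose, with 2 called lower.

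Between neighbouring doses in SJSA-1, 4 of 9 members rose and 3 fell at 200 against 50 nM, where 32.9% of all active leading probe sets rose and 30.5% fell, and 0 rose and 6 fell at 800 against 200 nM, where 19.4% rose and 12.9% fell. The risers at the first step were IER2 (1.13), IER3 (0.32), ZFP36 (0.30) and IER5 (0.18), and the genes that fell were SERTAD1 (-0.59), BTG1 (-0.55) and DUSP1 (-0.35). SERTAD1 (-0.94), DUSP1 (-0.57), BTG1 (-0.56), KLF6 (-0.55), IER5 (-0.48) and KLF10 (-0.32) fell at the second step, whereas IER2, IER3 and ZFP36 did not pass the test there. Of these, the IER5 step at 200 nM was lost with the shift by the controls, at 0.22. EGR1 rose by 2.59 at the first step (adjusted p = 5.06e-09, fit over all probe sets) and differed by 0.12 at the second (adjusted p = 0.557).

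In U2-OS, BTG1, IER3, KLF6 and IER5 had the largest changes among the active members, each at 800 nM. BTG1 read 7.65, 7.63 and 8.06 in DMSO, 8.06, 8.16 and 8.06 at 50 nM, 8.32, 8.14 and 8.36 at 200 nM, and 9.08, 9.08 and 9.06 at 800 nM. DMSO replicate 3 lay as high as the arrays at 50 nM, and the arrays at 800 nM lay above all others. BTG1 was higher by 0.49 ± 0.098 (SE, adjusted p = 0.00198) at 200 nM, a call lost with the shift by the controls at 0.22, and by 1.29 (2.44-fold, adjusted p = 3.44e-07) at 800 nM, while 0.31 at 50 nM did not pass (adjusted p = 0.0969) but passed without that DMSO replicate, at 0.45. IER3 read 9.71, 9.69 and 9.86 in DMSO, 9.98, 9.95 and 10.06 at 50 nM, 10.45, 10.51 and 10.37 at 200 nM, and 11.01, 10.98 and 10.84 at 800 nM, so that each dose lay above the one before it. Its changes were 0.24 ± 0.064 (SE, adjusted p = 0.0539), 0.69 (1.61-fold, adjusted p = 1.1e-05) and 1.19 (2.28-fold, adjusted p = 2.26e-08). The change at 50 nM passed the threshold under 6 of the 10 alternatives, with an adjusted p of 0.0345 after centring and 0.00855 in 1 fit of all 24 arrays.

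KLF6 in U2-OS read 7.21, 7.24 and 7.31 in DMSO, 7.64, 7.46 and 7.46 at 50 nM, 7.85, 7.86 and 7.73 at 200 nM, and 8.44, 8.48 and 8.37 at 800 nM, with no overlap between groups. On the values as deposited it was the only member called at 50 nM, at 0.27 ± 0.061 (SE, adjusted p = 0.0336), and that call was lost when any of the 6 arrays compared, or replicate 1 at 800 nM, was left out (0.21 to 0.29), as well as with the shift by the controls, at 0.28. At 200 and 800 nM KLF6 was higher by 0.56 (adjusted p = 3.17e-05) and 1.17 (2.25-fold, adjusted p = 1.81e-08). IER5 read 8.56, 8.59 and 8.65 in DMSO, 8.58, 8.60 and 8.48 at 50 nM, 8.92, 8.64 and 8.84 at 200 nM, and 9.69, 9.80 and 9.68 at 800 nM. Replicate 2 at 200 nM lay among the DMSO arrays, and the 800 nM arrays stood clear of all others. The IER5 change was -0.047 ± 0.069 (SE, adjusted p = 0.765) at 50 nM and 1.12 (2.18-fold, adjusted p = 6.01e-08) at 800 nM. At 200 nM it was 0.20 (adjusted p = 0.0374), which turned to -0.075 with the shift by the controls and was no longer called without DMSO replicate 1 or 2 or 200 nM replicate 1 or 3 (0.14 to 0.28).

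SERTAD1 had the largest change of all members at 200 and 800 nM in U2-OS. It read 6.48, 6.36 and 6.51 in DMSO, 6.92, 6.69 and 6.68 at 50 nM, 7.43, 7.43 and 7.44 at 200 nM, and 8.27, 8.46 and 8.19 at 800 nM, each dose above the one before. In the fit over all probe sets its changes were 0.31 ± 0.082 (SE, adjusted p = 0.098), 0.98 (1.97-fold, adjusted p = 4.1e-06) and 1.84 (3.59-fold, adjusted p = 2.34e-09), where 0.537%, 8.24% and 15.6% of all probe sets were higher. EGR1 read 5.68, 5.62 and 5.82 in DMSO, 5.72, 5.66 and 5.47 at 50 nM, 5.58, 5.54 and 5.60 at 200 nM, and 6.72, 6.41 and 6.38 at 800 nM in U2-OS. Only the arrays at 800 nM lay above DMSO, by 0.79 ± 0.092 (SE, adjusted p = 1.28e-05) on the log2 scale. All 3 arrays at 200 nM lay below DMSO, with a change of -0.13 (adjusted p = 0.378), which passed the threshold with the shift by the controls at -0.40. Of the other 5 EGR1 probe sets, 3 passed at 800 nM, with 0.67, 0.77 and 0.22, and 2 did not, with 0.094 and 0.096.

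IER2 and ZFP36 had smaller changes in U2-OS than in SJSA-1 at each dose, as tested with the difference between the lines. IER2 read 8.35, 8.30 and 8.28 in DMSO, 8.46, 8.49 and 8.59 at 50 nM, 8.66, 8.51 and 8.61 at 200 nM, and 8.99, 9.12 and 8.99 at 800 nM, with the 50 and 200 nM arrays among each other. Its change was 0.20 ± 0.057 (SE, adjusted p = 0.0671), 0.28 (adjusted p = 0.00199) and 0.72 (1.65-fold, adjusted p = 4.27e-07), and both calls were lost with the shift by the controls, at 0.0084 and 0.21. ZFP36 read 7.24, 7.29 and 7.33 in DMSO, 7.22, 7.21 and 7.29 at 50 nM, 7.29, 7.27 and 7.32 at 200 nM, and 8.10, 7.94 and 7.97 at 800 nM. The lower doses lay among the DMSO arrays (-0.046, adjusted p = 0.669, and 0.0066, adjusted p = 0.931, the second -0.27 and called lower with the shift by the controls). At 800 nM ZFP36 was higher by 0.71 ± 0.051 (SE, 1.64-fold, adjusted p = 1.94e-07), which the shift by the controls took to 0.20 and below the threshold.

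On the values as deposited, KLF10 and DUSP1 had the smallest changes of the active members at 800 nM in U2-OS. KLF10 read 8.62, 8.77 and 8.65 in DMSO, 8.88, 8.81 and 8.77 at 50 nM, 9.05, 8.77 and 8.98 at 200 nM, and 9.06, 9.17 and 9.15 at 800 nM. Arrays at 50 and 200 nM overlapped with DMSO, and those at 800 nM lay above it. The KLF10 changes were 0.14 ± 0.071 (SE, adjusted p = 0.303), 0.25 (adjusted p = 0.0141) and 0.45 (1.36-fold, adjusted p = 0.000172), of which the last 2 turned to -0.021 and -0.065 with the shift by the controls, and the call at 200 nM was lost without DMSO replicate 1 or 200 nM replicate 1 (0.19 to 0.33). DUSP1 read 9.92, 9.91 and 9.90 in DMSO, 9.96, 9.89 and 9.91 at 50 nM, 9.86, 9.78 and 9.90 at 200 nM, and 9.85, 9.82 and 9.73 at 800 nM. The DUSP1 arrays at 50 nM lay among those of DMSO, and those at 200 and 800 nM at or below them. Its leading probe set passed at no dose (0.010, -0.063 and -0.11, adjusted p = 0.935, 0.322 and 0.0654), although with the shift by the controls it was called lower at 200 and 800 nM, at -0.34 and -0.62. Between neighbouring doses in U2-OS, 3 of 8 members rose and 0 fell at 200 against 50 nM, beside 8.32% and 14% of all active leading probe sets, and 6 rose and 0 fell at 800 against 200 nM, beside 12.6% and 21.1%. The 6 were IER5 (0.92), BTG1 (0.80), ZFP36 (0.71), KLF6 (0.61), IER3 (0.50) and IER2 (0.44). Shifted by the controls, 0 rose and 1 fell at the first step (DUSP1, -0.37), and 4 rose and 1 fell at the second. IER5 (0.68), BTG1 (0.56), ZFP36 (0.47) and KLF6 (0.38) rose there, DUSP1 (-0.28) fell, and IER3 (0.26) and IER2 (0.20) did not pass. Of all 14708 active probe sets, 40 rose and 8866 fell at the first step with the shift, and 227 and 5751 at the second. The chart of changes against DMSO gives all 60 values.

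**Figure D2:**
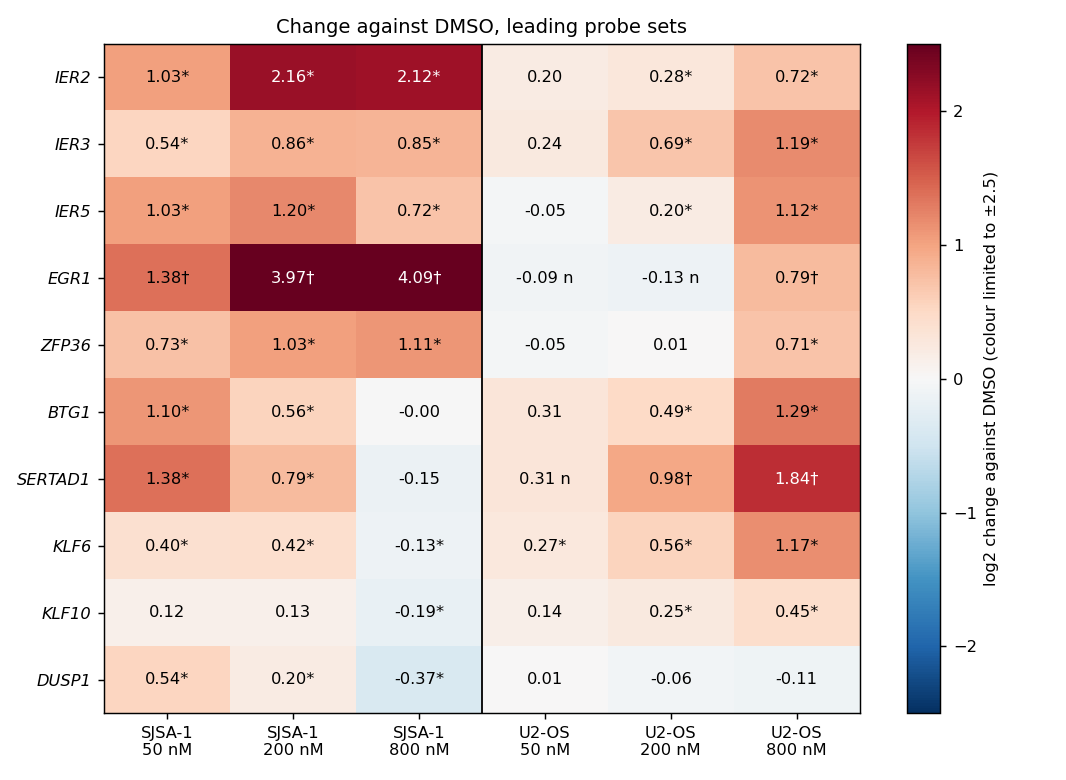
Log2 change against DMSO (colour, limited to 2.5 either way, and printed value) of the leading probe set of each member (vertical axis) at each dose in SJSA-1 and U2-OS (horizontal axis). A star marks an adjusted p under 0.05 in the limma fit over active probe sets, a dagger the same in the fit over all probe sets, and n a value from that fit that did not pass. On the values as deposited, EGR1 in SJSA-1 reached 3.97 and 4.09, SERTAD1 in U2-OS 1.84, and DUSP1 in U2-OS stayed between -0.11 and 0.01.

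The difference between the lines was tested itself, as the change in SJSA-1 less that in U2-OS, in 1 limma fit of all 24 arrays over the probe sets active in both. At 50 nM, 6 of 8 members differed with a larger value in SJSA-1 and 0 with a smaller one, where 19.4% of all active leading probe sets differed upwards and 33.1% downwards. At 200 nM the counts were 4 and 0 of 8, beside 28.1% and 35.2%. At 800 nM all 8 differed, 2 upwards and 6 downwards, beside 34.9% and 31.1%. Shifted by the controls, the counts were 4 and 1 at 50 nM, 3 and 0 at 200 nM and 2 and 3 at 800 nM. Of all 12651 probe sets active in both lines, 218 then differed upwards and 7050 downwards at 50 nM. These counts over all were 1200 and 3215 at 200 nM, and 4011 and 2355 at 800 nM.

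The leading probe sets of IER2 and EGR1 changed more in SJSA-1 at all 3 doses. The IER2 difference was 0.83 ± 0.072 (SE, adjusted p = 7.24e-09), 1.88 (adjusted p = 3.9e-14) and 1.40 (adjusted p = 5.08e-13) at 50, 200 and 800 nM, and that of EGR1 in the fit over all probe sets was 1.47 ± 0.15 (SE, adjusted p = 1.06e-07), 4.10 (adjusted p = 1.23e-14) and 3.30 (adjusted p = 8e-14). In that fit 12%, 18.2% and 19.8% of all probe sets differed upwards. Another EGR1 probe set did not share the difference at 50 nM. Its means in DMSO and at 50 nM were 5.04 and 5.10 in SJSA-1, and 4.98 and 5.10 in U2-OS. The remaining EGR1 probe sets had larger mean changes in SJSA-1 at that dose. ZFP36 also differed upwards at each dose, by 0.78, 1.03 and 0.40 (adjusted p = 5.31e-05, 1.22e-06 and 0.0129).

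For BTG1, SERTAD1, IER5, DUSP1 and IER3 the difference was called at 50 and 800 nM with opposite signs, on the values as deposited. BTG1 differed by 0.79 ± 0.12 (SE, adjusted p = 8.38e-06) at 50 nM, by 0.067 (adjusted p = 0.634) at 200 nM, or -0.0032 with the shift by the controls, and by -1.29 (adjusted p = 4.45e-09) at 800 nM. SERTAD1 differed by 1.07 ± 0.12 (SE, adjusted p = 2.33e-07), -0.18 (adjusted p = 0.25) and -1.99 (adjusted p = 4.18e-12) in the fit over all probe sets. The difference of IER5 was 1.07, 1.005 and -0.40 (adjusted p = 2.09e-09, 2.34e-09 and 0.00039), and that of DUSP1 0.53, 0.26 and -0.26 (adjusted p = 1.33e-06, 0.0024 and 0.00204). After that shift the DUSP1 values were 0.13, 0.19 and -0.15 and the IER5 value at 800 nM was -0.29, with none of these 4 called. On the values as deposited, the leading probe sets of the Krüppel-like factor genes differed at 800 nM only, KLF6 by -1.30 ± 0.074 (SE, adjusted p = 2.62e-12) and KLF10 by -0.63 (adjusted p = 2.3e-05). The second KLF10 probe set had changes against DMSO of 0.027 in SJSA-1 and 0.30 in U2-OS at 200 nM. With the shift the leading KLF10 probe set also passed at 50 nM, at -0.42, and the KLF6 value of 0.13 at 50 nM turned to -0.27. IER3 differed by 0.30 (adjusted p = 0.00259) at 50 nM, a sign that turned to -0.11 with the shift by the controls, by 0.17 at 200 nM, which did not pass but was called under 5 of the 10 alternatives (adjusted p = 0.0121 after centring), and by -0.34 (adjusted p = 0.000573) at 800 nM, a call lost with it at -0.23.

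**Figure D3:**
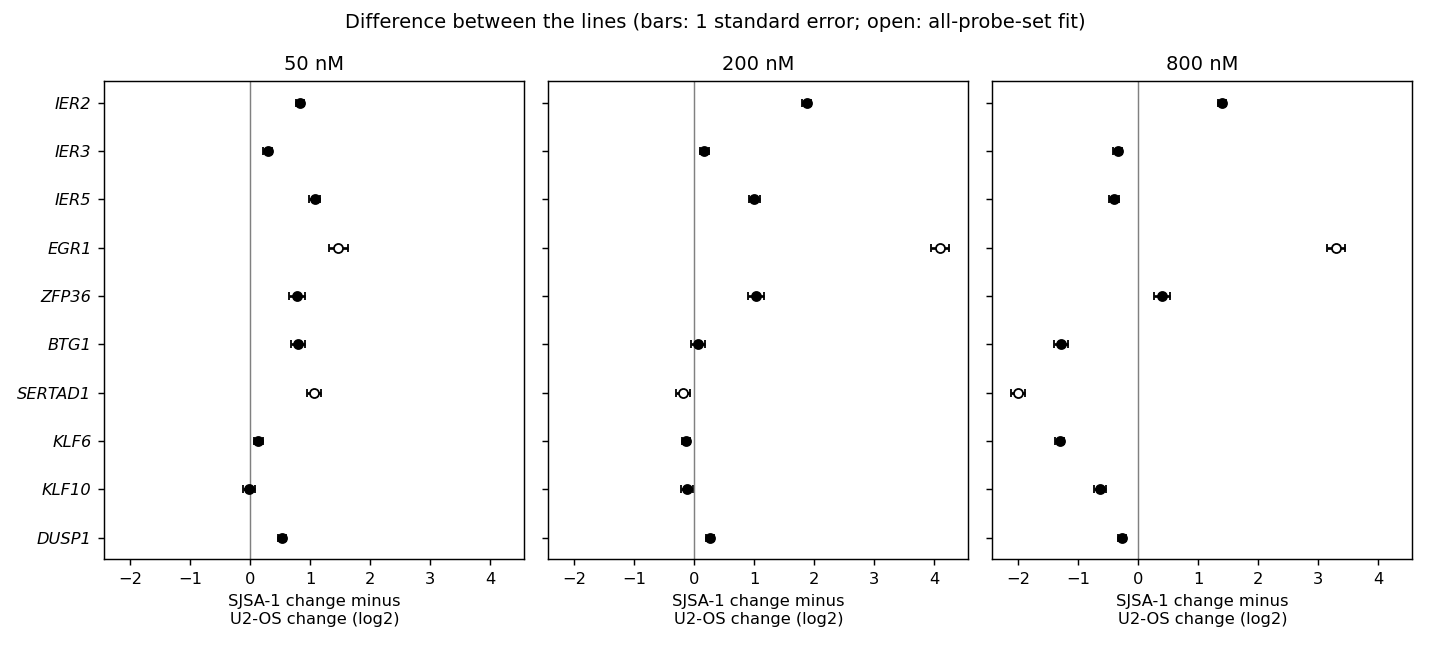
SJSA-1 change minus U2-OS change on the log2 scale (horizontal axis) of each member (vertical axis) at 50, 200 and 800 nM THZ531, with bars of 1 standard error; open circles come from the fit over all probe sets. EGR1 and IER2 lie to the right of 0 in every panel, and SERTAD1, KLF6, BTG1 and KLF10 lie furthest to the left at 800 nM, on the values as deposited.

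Without the compound, 5 of 9 members active in at least 1 line were higher in SJSA-1 and 2 lower, set against U2-OS, beside 42.4% and 42% of all such leading probe sets. KLF6 stood at 9.13 ± 0.0058 (SD, n = 3) in SJSA-1 and 7.25 ± 0.051 in U2-OS, 3.65-fold apart (adjusted p = 7.31e-18, limma), and IER3 at 11.31 ± 0.046 and 9.75 ± 0.093, 2.94-fold apart (adjusted p = 2.1e-16). BTG1, SERTAD1 and IER2 were higher in SJSA-1 by 0.48, 0.30 and 0.28. KLF10 was lower in SJSA-1, at 7.91 ± 0.082 (SD, n = 3) against 8.68 ± 0.079 in U2-OS (-0.77, adjusted p = 5.58e-09), as was DUSP1, at 9.28 ± 0.012 against 9.91 ± 0.010 (-0.63, adjusted p = 1.31e-10). IER5 (-0.033) and ZFP36 (-0.076) did not pass, and EGR1 differed by -1.01 (adjusted p = 2.38e-08) in the fit over all probe sets, where 28.2% of all were lower. The poly-A controls also differed between the lines in DMSO, at a mean log2 of 6.03 in SJSA-1 and 5.11 in U2-OS. Shifted by the controls, 2 of 9 members were higher in SJSA-1, KLF6 (1.39) and IER3 (1.08), and 4 were lower, KLF10 (-1.24), DUSP1 (-1.11), ZFP36 (-0.55) and IER5 (-0.51). BTG1 (0.0075), IER2 (-0.19) and SERTAD1 (-0.18) then did not pass, the last 2 with the other sign. Of all 16881 probe sets active in at least 1 line, 3256 were higher and 10300 lower in SJSA-1 with the shift, with a median of -0.43.

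Probe sets of 1 gene share its transcripts and are not replicates, but they show how far a value rests on 1 of them. Over all active member probe sets, 13 were higher and 0 lower of 15 in SJSA-1 at 50 nM, where 30.4% of all active probe sets were higher and 35.1% lower. The counts were the same at 200 nM, beside 37.7% and 35.3%, and 5 were higher and 6 lower at 800 nM (42.4% and 31.5%). In U2-OS 1 of 14 was higher and 0 lower at 50 nM (2.16% and 2.09%), 10 were higher and 1 lower at 200 nM (16.7% and 22.3%), and 11 were higher and 1 lower at 800 nM (26.9% and 32.2%). Changes of at least 2-fold were reached by 6, 4 and 2 member probe sets in SJSA-1 at 50, 200 and 800 nM, all upwards, where 1.01%, 0.438% and 0.277% of all reached them upwards. In U2-OS they were reached by 0, 0 and 7 member probe sets, all upwards, beside 0.0136%, 0.0272% and 1.05% of all. The probe set that fell in U2-OS was 1 of DUSP1, at -0.20 for 200 nM (adjusted p = 0.0045) and -0.14 for 800 nM (adjusted p = 0.0216), while the third active DUSP1 probe set had 0.066 and 0.11 and did not pass. The low probe set of BTG1, at 2.54 in SJSA-1 and 2.51 in U2-OS in DMSO, near the lowest values of the array, showed changes of at most 0.22, which passed in the fit over all probe sets at 200 nM in SJSA-1 (adjusted p = 0.0116).

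**Figure D4:**
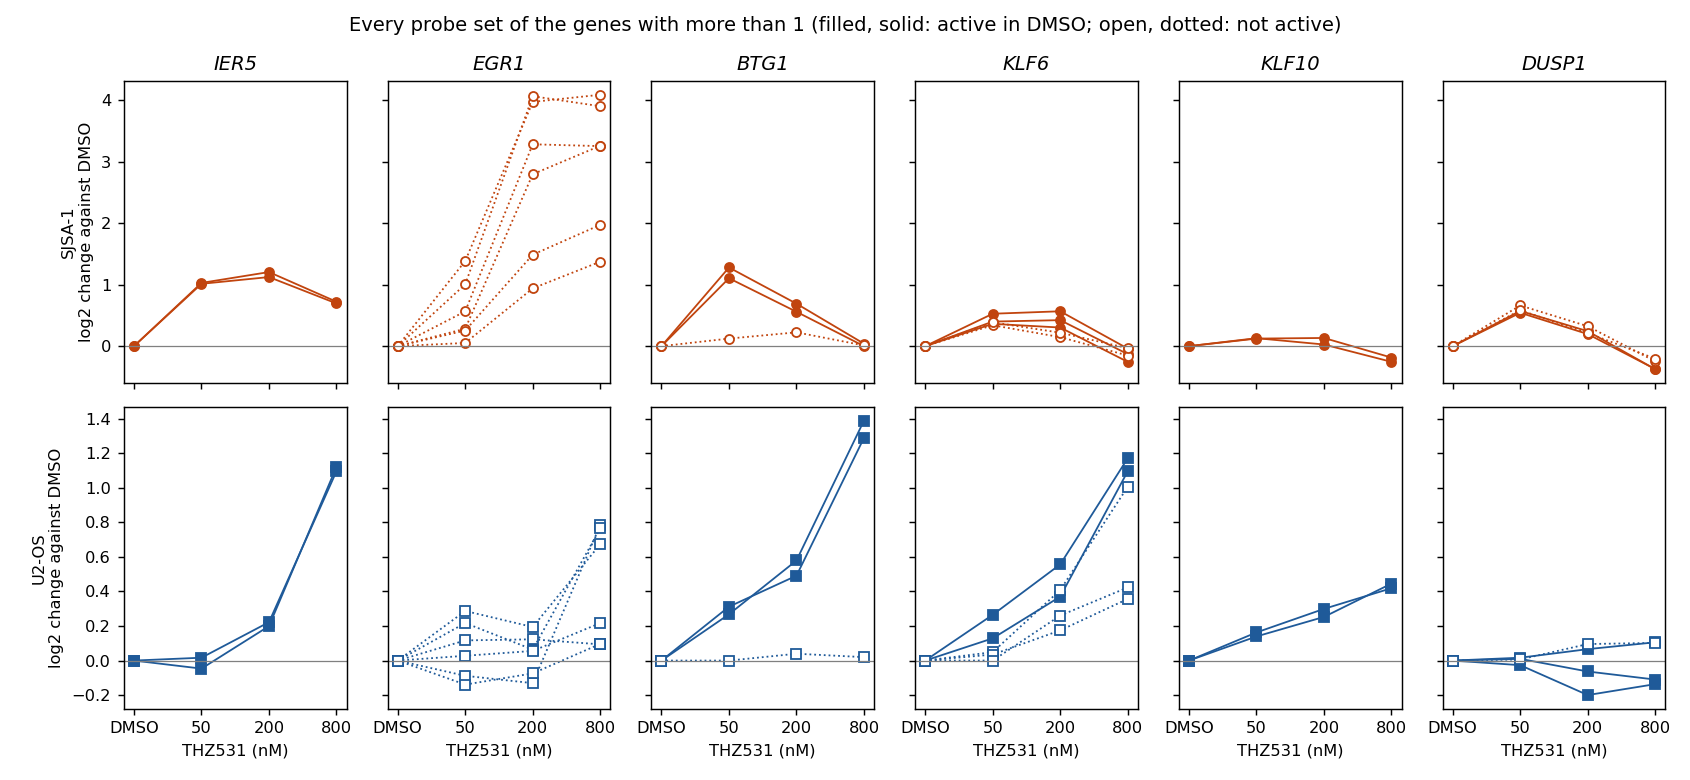
Log2 change against DMSO (vertical axis, with a scale of its own for each line) of every probe set of the 6 members with more than 1, by dose of THZ531 (horizontal axis), in SJSA-1 (upper panels) and U2-OS (lower panels). Filled symbols mark probe sets active in DMSO and open symbols those that were not; the pairs of IER5 and KLF10 lie close together, and those of DUSP1 in U2-OS lie on both sides of 0.

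The other immediate-early genes formed a list of 26, of which 25 were measured. In SJSA-1, 8 were higher and 3 lower of 13 active at 50 nM, 8 and 3 at 200 nM, and 5 and 7 at 800 nM, with medians of 0.46, 0.29 and -0.29, while the shift by the controls gave counts of 5 and 5, 4 and 5, and 3 and 9 and medians of 0.078, -0.053 and -0.69. In U2-OS, 4 were higher and 0 lower of 15 active at 50 nM, 8 and 0 at 200 nM, and 13 and 2 at 800 nM, with medians of 0.17, 0.24 and 0.57, and 1 and 0, 3 and 3, and 6 and 2 with medians of 0.19, -0.038 and 0.061 after that shift. The shares over all active leading probe sets were 26.3% higher and 40.2% lower, 33.6% and 40.9%, and 36.3% and 37.3% in SJSA-1, and 2.6% and 2.48%, 17.6% and 24.3%, and 25% and 36.1% in U2-OS. Those shares are on the values as deposited. With the shift, 572 of all 14824 active probe sets were higher and 10708 lower, 421 and 8867, and 435 and 9250 in SJSA-1. Of the 14708 in U2-OS, 50 were higher and 58 lower, 174 and 7868, and 453 and 11865. JUNB, an AP-1 subunit, read 6.66, 6.68 and 6.76 in DMSO, 7.89, 7.88 and 7.72 at 50 nM, 9.15, 9.15 and 9.17 at 200 nM, and 9.01, 8.85 and 9.14 at 800 nM in SJSA-1, a course like that of IER2. It rose there by 1.12, 2.45 and 2.29 (adjusted p = 1.46e-08, 1.2e-11 and 9.75e-12), and by 0.87 (adjusted p = 5.27e-07) at 800 nM in U2-OS, where -0.056 and 0.14 at the lower doses did not pass. GADD45B, a stress-response gene, rose in SJSA-1 by 0.88, 1.31 and 0.92, and in U2-OS at 800 nM by 0.57, a call lost with the shift by the controls at 0.061. FOSL1 and FOSL2, which encode AP-1 subunits of the FOS family, fell in SJSA-1, FOSL1 with changes of -0.91, -2.27 and -3.07 and FOSL2 with -0.93, -1.81 and -2.01, and both fell in U2-OS at 800 nM, with -0.96 and -0.22, the second of which was not called with arrays centred on their medians, at -0.17.

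Relatives of the members, a list of 28 with 27 measured, had 13 higher and 3 lower of 16 active in SJSA-1 at 50 nM, 5 and 9 at 200 nM, and 1 and 12 at 800 nM, with medians of 0.37, -0.31 and -0.70. The background shares, and the counts over all active probe sets with the shift, are those given with the other immediate-early genes. The lists were not tested against the members. With the shift by the controls these counts were 5 and 4, 2 and 11, and 0 and 15, and the median at 50 nM was -0.019. In U2-OS 0 were higher and 0 lower of 16 at 50 nM, 11 and 2 at 200 nM, and 12 and 3 at 800 nM, with medians of 0.096, 0.25 and 0.39, of which the last 2 were -0.022 and -0.12 with that shift, with counts of 0 and 2, and 5 and 4. KLF7, another Krüppel-like factor gene, fell in SJSA-1, with -1.02, -1.34 and -1.22 (adjusted p = 1.04e-07, 5.05e-09 and 1.23e-08) and in U2-OS, with -0.29 at 200 nM and -0.75 at 800 nM. DUSP5 and DUSP4, which like DUSP1 encode nuclear MAP kinase phosphatases, fell in SJSA-1, with -1.10 and -0.77 at 200 nM and -2.34 and -1.65 at 800 nM, and were not active in U2-OS. At 50 nM in SJSA-1, DUSP4 was higher by 0.82, and DUSP5 by 0.30, or -0.085 with the shift by the controls. SERTAD4 fell in SJSA-1, with -0.80, -1.08 and -0.82 at 50, 200 and 800 nM, and in U2-OS, with -0.46 at 200 nM and -0.71 at 800 nM.

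Genes of upstream regulators formed a list of 19 with 16 measured. In SJSA-1, 5 were higher and 5 lower of 12 active at 50 nM, 3 and 5 at 200 nM, and 3 and 6 at 800 nM, and in U2-OS 2 and 0, 2 and 5, and 3 and 6 of 14. Over all active leading probe sets 26.3% were higher and 40.2% lower at 50 nM, 33.6% and 40.9% at 200 nM, and 36.3% and 37.3% at 800 nM in SJSA-1, and the U2-OS shares were 2.6% and 2.48%, 17.6% and 24.3%, and 25% and 36.1%. With the shift by the controls the counts were 0 and 7, 0 and 9, and 0 and 9 in SJSA-1 and 0 and 0, 0 and 9, and 0 and 12 in U2-OS. Of all 14824 active probe sets in SJSA-1, 572 were then higher and 10708 lower, 421 and 8867, and 435 and 9250 at these doses. Of the 14708 in U2-OS, 50 were higher and 58 lower, 174 and 7868, and 453 and 11865. MRTFB, a coactivator of serum response factor, read 7.44, 7.44 and 7.53 in DMSO, 5.81, 5.57 and 5.34 at 50 nM, 4.98, 4.60 and 4.46 at 200 nM, and 4.97, 5.24 and 5.02 at 800 nM in SJSA-1, where it fell, with -1.87, -2.74 and -2.36 (adjusted p = 4.03e-08, 6.57e-10 and 2.48e-09). In U2-OS MRTFB fell too, with -0.45 at 200 nM and -1.17 at 800 nM. CREB1, whose product binds cyclic AMP response elements, fell in SJSA-1, with -1.69, -1.89 and -1.16, and in U2-OS, with -0.73 at 200 nM and -1.66 at 800 nM. CREM, of the same family, fell in SJSA-1, with -0.90, -0.83 and -0.44, and in U2-OS, with -0.39 and -0.55 at 200 and 800 nM. ELK3, an ETS-family partner of serum response factor, fell in SJSA-1, with -0.71, -0.50 and -0.26, with no call in U2-OS unless the arrays were shifted by the controls.

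Since the members are short, their changes were set beside those of other active genes of like span. Over the 1319 other active genes under 10 kb in SJSA-1, the median change was -0.0033, 0.077 and 0.050 at 50, 200 and 800 nM, with 28.2%, 43.4% and 39.5% called higher. Over the 1086 genes of more than 100 kb the medians were -0.22, -0.17 and -0.033, with 17.4%, 25.2% and 33.2% higher and 56%, 52.1% and 42.5% lower. In U2-OS the 1414 genes under 10 kb had medians of -0.020, -0.050 and -0.077, with 3.25%, 11.7% and 17.1% higher, and the 1078 genes of more than 100 kb had -0.0066, -0.030 and -0.093. Between these classes the quartiles overlapped at every dose in both lines. At 200 nM in SJSA-1, 7 of the 9 active members lay above 0.26, the upper quartile of the other genes under 10 kb, and KLF10 and DUSP1 lay below it. At 800 nM in U2-OS, 7 of the 8 active members lay above 0.067, the corresponding quartile, and DUSP1 below it. These values describe the classes, and the part of span in the members' changes was not tested.

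**Figure D5:**
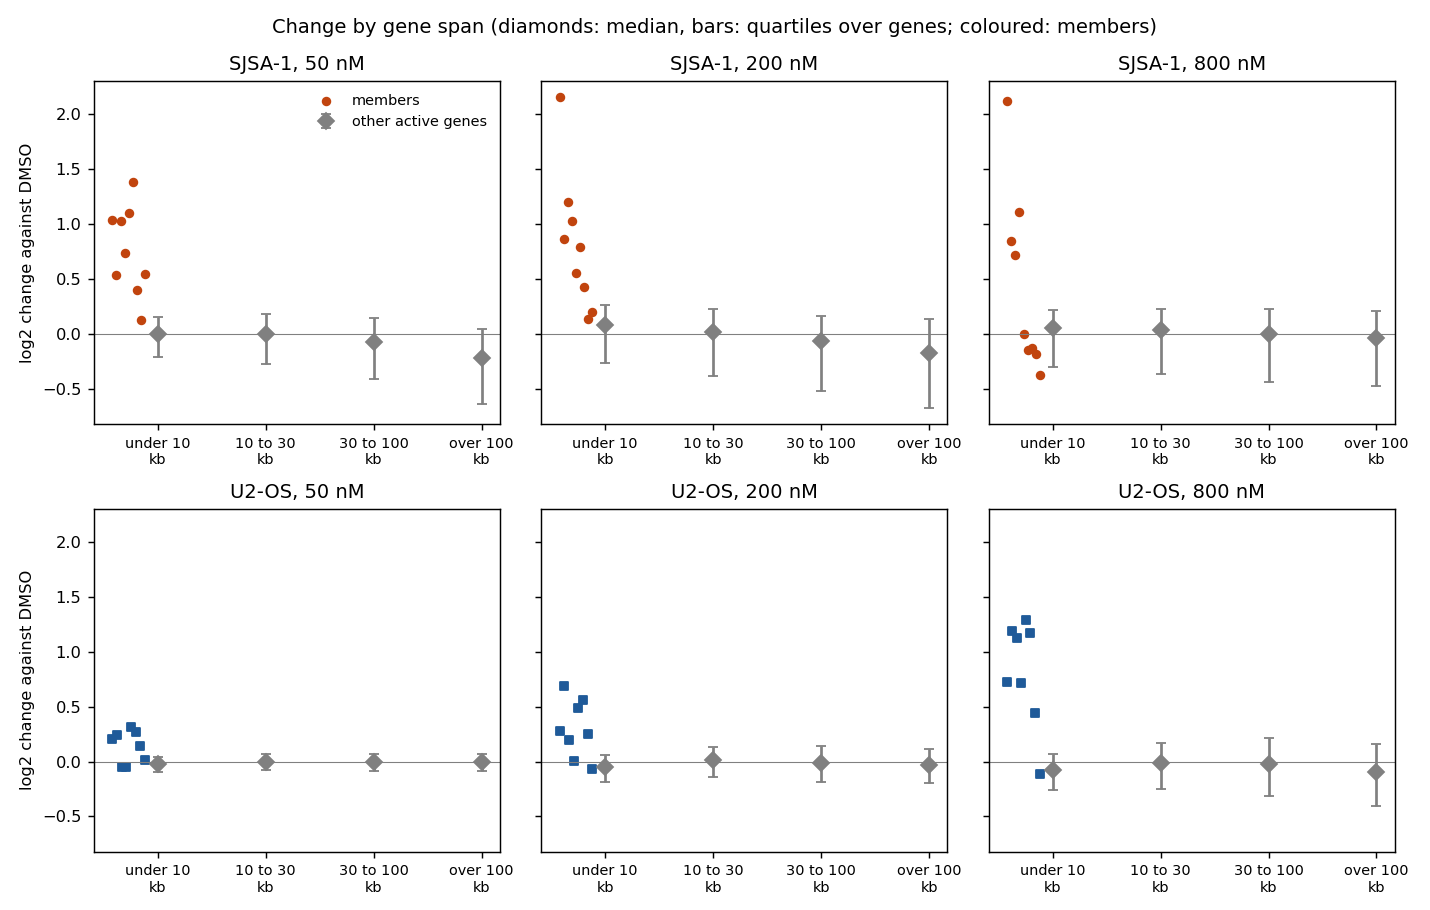
Log2 change against DMSO (vertical axis) by class of gene span (horizontal axis) for the other active genes, with diamonds at the median and bars between the quartiles over genes, and coloured points for the active members, all under 10 kb, in SJSA-1 (upper panels) and U2-OS (lower panels). On the values as deposited, the members lie mostly above the bar of their own class at 50 and 200 nM in SJSA-1 and at 200 and 800 nM in U2-OS.

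As a description of likeness, each active gene was correlated with the mean profile of the 9 active members over the 12 SJSA-1 arrays, which fall into 4 dose groups and so hold few independent points. The 5 most like of 6559 other genes were HBEGF (r = 0.99), C17orf58 (0.99), HHEX (0.99), RSRP1 (0.99) and OSMR (0.98). HBEGF, a growth factor of the EGF family, had log2 changes of 0.68, 0.78 and 0.40 at 50, 200 and 800 nM, and HHEX, a homeobox factor gene, 1.73, 1.73 and 1.04. RSRP1 and OSMR, the receptor gene for oncostatin M, span 96006 and 99568 bases, and HBEGF, C17orf58 and HHEX span 13761, 5371 and 5693 bases. The part of span in this likeness was not tested. Among the members themselves, correlation with the mean of the other 8 was highest for IER5 (r = 0.98) and lowest for KLF10 (0.42), DUSP1 (0.44) and IER2 (0.47).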

How the data were processed

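The data were 24 Affymetrix PrimeView arrays, 3 per group, of RNA extracted 6 h after the addition of THZ531 or DMSO to U2-OS and SJSA-1 cells. The authors deposited 1 linear intensity per probe set and array, normalised across the arrays with RMA per the labels, and the submitters' processing notes name both RMA and MAS5, without versions. The deposited intensities were antilogs of log2 values given to hundredths, so smaller steps were not resolved. RMA equalises the distribution of values between arrays, and a change shared by most transcripts is therefore not seen without the added control RNAs. The number of arrays limits the precision.

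Intensities were tested as log2(value + 1) with limma 3.58.1 (lmFit and eBayes, statmod 1.5.0, R 4.3.3), in 1 fit of the 12 arrays of each line and, for differences between the lines, in 1 fit of all 24 arrays. Two-sided p-values were adjusted with the Benjamini-Hochberg method over all probe sets active in DMSO (log2(100)), 14824 in SJSA-1, 14708 in U2-OS and 12651 in both, with a threshold of 0.05. Genes that were not active were read from the same fits over all 49372 probe sets. Probe sets were named from the platform annotation, with 44994 carrying 1 symbol, 1832 several and 2546 none, and 44967 of the symbols were updated through RefSeq. Different probe sets of a gene were never averaged. The members and the lists of other genes were chosen with earlier results of these data known. Of each list, the 4 leading probe sets that changed most at 200 nM, whichever the sign and the line, were named, and beside them the 5 genes most correlated with the members' mean profile in SJSA-1.

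The fits were tested on simulated arrays, with noise drawn for each probe set on its own and changes added to a small part of the probe sets. Deviations shared by probe sets of an array and widespread changes were not simulated, so these rates need not hold for the measured arrays. In the SJSA-1 comparison at 200 nM, over 14824 probe sets, 99% of added changes of 0.5 and 42% of those of 0.25 on the log2 scale were recovered, with 8 false calls. For the difference between the lines at 200 nM, over 12651 probe sets, 84% and 18% were recovered, with 8 false calls. No changes were added to U2-OS arrays, so recovery was not measured there, and the U2-OS comparison at 200 nM gave 0 false calls over 14708 probe sets.

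The alternatives were a criterion of log2(200) and no criterion, log2(value + 16), 1 leading probe set per gene, arrays centred on their medians, arrays shifted by the mean of 24 poly-A and 18 hybridization control probe sets, eBayes with trend and robust fitting, 1 fit of all 24 arrays, the replicate number as a block, the methods' t-test, and the omission of each array in turn. Promoter sequences and gene spans came from RefSeq tables of GRCh38.p14. Figures were drawn with matplotlib 3.10.9 from tables read with pandas 2.3.3 in Python 3.11.15.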

Additional observations from a re-analysis of the deposited data

Results flagged for a closer look

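The change against DMSO differed between the lines in the test of the difference itself (SJSA-1 change minus U2-OS change, limma, 3 arrays per group) for 23 combinations of member and dose. The difference was 0.83, 1.88 and 1.40 for IER2, 1.47, 4.10 and 3.30 for EGR1 (fit over all probe sets), and 0.78, 1.03 and 0.40 for ZFP36 at 50, 200 and 800 nM. It was 1.07, 1.005 and -0.40 for IER5 and 0.53, 0.26 and -0.26 for DUSP1 at these doses. At 50 and 800 nM it was 0.79 and -1.29 for BTG1, 1.07 and -1.99 for SERTAD1 (fit over all probe sets), and 0.30 and -0.34 for IER3. KLF6 (-1.30) and KLF10 (-0.63) differed at 800 nM. With arrays shifted by their controls, the 3 differences of DUSP1 (0.13, 0.19 and -0.15) and those of IER3 (-0.23) and IER5 (-0.29) at 800 nM no longer passed, and that of IER3 at 50 nM turned to -0.11. Each group held 3 arrays, too few for a test of single outlying arrays.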

How the results depend on the processing

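Over 90 single-gene results and 10 alternatives other than the omission of an array, 760 values kept their direction and their side of the threshold. With the sign kept, 29 lost and 21 gained a call. The other 12 changed sign, with or without a change of call. Of the last, 10 came from the shift by the controls: in U2-OS IER5 (-0.075), ZFP36 (-0.27) and KLF10 (-0.021) at 200 nM and KLF10 at 800 nM (-0.065), in SJSA-1 KLF10 at 50 and 200 nM (-0.26 and -0.21) and DUSP1 at 200 nM (-0.15), and, for the difference between the lines, IER3 (-0.11) and KLF6 (-0.27) at 50 nM and BTG1 at 200 nM (-0.0032). Centring turned BTG1 in SJSA-1 at 800 nM to 0.10 and the KLF10 difference at 50 nM to 0.023. The cause of these changes was not tested. Where the sign was kept, the shift by the controls also took away 15 calls and added 6. Among its changes of sign, calls were lost for IER5 at 200 nM and KLF10 at 200 and 800 nM in U2-OS. They were also lost for DUSP1 at 200 nM in SJSA-1 and the IER3 difference at 50 nM. Calls as lower were gained by ZFP36 at 200 nM in U2-OS and KLF10 at 50 nM in SJSA-1. KLF6 at 50 nM and IER5 at 200 nM in U2-OS lost their calls without the criterion, with the replicate block and with the methods' t-test, and KLF10 at 800 nM in SJSA-1 also with centring. BTG1 and KLF10 at 200 nM in U2-OS lost theirs with the methods' t-test (adjusted p = 0.108 and 0.150), and KLF6 at 800 nM in SJSA-1 without the criterion (0.0844) and with centring. Calls gained in more than 1 setting were IER3 at 50 nM in U2-OS under 6 alternatives and its difference between the lines at 200 nM under 5.

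Counts of member probe sets called moved by over 1.5 times as follows. In U2-OS at 50 nM the count of 1 became 0 without the criterion, with the shift, with the replicate block and with the methods' t-test, 2 with leading probe sets alone, centring, log2(value + 16) and trended robust eBayes, and 5 in the fit of all 24 arrays. At 200 nM in U2-OS the count of 11 became 6 with leading probe sets alone, 6 with the shift and 5 with the methods' t-test. Without the criterion, and with more probe sets tested, the counts became 19 in place of 12 at 800 nM in U2-OS, 20 and 21 in place of 13 at 50 and 200 nM in SJSA-1, 14 in place of 9 at 800 against 200 nM in U2-OS, 16 in place of 9 at 200 against 50 nM in SJSA-1, 16, 12 and 22 in place of 9, 7 and 13 for the difference between the lines at 50, 200 and 800 nM, and 20 in place of 13 for DMSO. With leading probe sets alone, which are fewer, they became 7 at 800 nM in U2-OS, 8, 8 and 7 at 50, 200 and 800 nM in SJSA-1, 3 of 7 at 200 against 50 nM in U2-OS, 6 of 12 at 800 against 200 nM in SJSA-1, 8 for the difference at 800 nM and 7 for DMSO. With the shift they became 8 at 200 nM in SJSA-1, 2 at 200 against 50 nM in U2-OS, and 4 and 8 for the difference at 200 and 800 nM. With log2(200) they became 4 and 5 at 200 against 50 nM and 800 against 200 nM in U2-OS, and the methods' t-test left 1 at the first of these steps.

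Over all arrays left out in turn, the count ran from 0 to 3 at 50 nM in U2-OS and from 2 to 8 at 200 against 50 nM in U2-OS, and the other 12 counts stayed within 1.5 times. The sign changed for DUSP1 at 50 nM (-0.0100 to 0.025) and ZFP36 at 200 nM (-0.017 to 0.028) in U2-OS, BTG1 at 800 nM in SJSA-1 (-0.056 to 0.038), and the differences of KLF10 at 50 nM (-0.062 to 0.035) and BTG1 at 200 nM (-0.072 to 0.14), none of which was called. Arrays of 1 line with the same replicate number did not deviate together (10 of 36 pairs with r over 0.1, median -0.055, against 27 of 72 pairs with other numbers), so the replicate block only tests a shared number.

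All active probe sets split otherwise with the shift, at 50 nM 572 higher and 10708 lower in SJSA-1 (4501 and 5203 as deposited) and 50 and 58 in U2-OS (317 and 308), and at 800 nM 435 and 9250 in SJSA-1 (6284 and 4672) and 453 and 11865 in U2-OS (3954 and 4736). Centring moved the median of all active probe sets in SJSA-1 to 0.050, 0.11 and 0.17 at 50, 200 and 800 nM and gave 8065 higher and 3911 lower at 800 nM. Probe sets below the criterion, as those of EGR1, were read from dim values. The spread between 3 arrays limits each test.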
